A study of Mus musculus with 64 samples.

Results

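The core circadian clock genes Per1, Per2, Per3, Cry1, Cry2, Arntl, Clock, Npas2, Nr1d1 and Nr1d2 were followed in bulk RNA sequencing of 2 brain regions of mice given psilocybin or vehicle. These 10 genes were taken by symbol from a table of counts for 55401 genes, and all 10 were among the 18971 genes that passed the filter on low counts. The study asked what a single dose of psilocybin, a serotonergic psychedelic, changes in the hypothalamus and in the prefrontal cortex (PFC, labelled frontal cortex) shortly after injection and weeks later. Chow-fed, group-housed male C57BL/6J mice were 10 weeks old at the start and received a single intraperitoneal injection of psilocybin at a dose of 3 mg/kg or of isotonic saline as vehicle. By the study's general methods, its mice had also been given sham injections of saline on the days before an experiment. Tissue was taken 3 h or 4 weeks after that injection, which gave 8 groups of 8 libraries by region, treatment and harvest. The 32 mice gave both regions each, every cage held 1 mouse of each treatment and harvest, and all mice were killed 4 h after light onset. The clock genes were therefore read at a single time of day in all groups, and no rhythm could be measured.

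The mammalian clock is a feedback loop of transcription. Arntl (also called Bmal1) pairs with Clock, or in the forebrain with its close relative Npas2, and the pair binds E-box sequences and activates the Per and Cry genes, whose protein products then repress it. Nr1d1 and Nr1d2 encode the nuclear receptors REV-ERB alpha and beta, which the same pair activates and which repress Arntl in turn. Per1 and Per2 are also switched on directly by signals from outside the loop, among them neuronal activity through cAMP response elements and glucocorticoid hormones. The suprachiasmatic nucleus of the hypothalamus is the central pacemaker, and most other tissues, the cortex included, carry clocks of their own.

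Of the 64 libraries, 62 held 8061033 to 70361839 counts (median 18288000) and were used. The libraries of 1 vehicle mouse at 3 h (hypothalamus, replicate 2) and 1 psilocybin mouse at 4 weeks (PFC, replicate 3) held 211111 and 200066 counts and were left out, so these groups have n = 7. Replicate 5 of the hypothalamus psilocybin 4 weeks group and replicate 7 of the PFC psilocybin 3 h group stood apart from their groups, with quality weights of 0.0276 and 0.12 where 1 is average weight, and results that rest on them are given with and without them. The next lowest weights were in the PFC vehicle 3 h group: 0.275 in replicate 3, 0.286 in replicate 5 and 0.323 in replicate 4. The regions matched their labels: the summed level of 10 hypothalamic markers was 420 to 2882 counts per 1000000 (CPM, on TMM-scaled library sizes) in hypothalamus libraries and 1.25 to 27.5 CPM in PFC libraries. Of the markers of the suprachiasmatic nucleus, Six6 had a median of 6.77 to 7.89 CPM and Nms one of 0.985 to 1.32 CPM in the 4 hypothalamus groups and were above 0 in each library. Of the 6 genes on that list, Six6, Nms, Prok2 and Lhx1 were lower in the PFC than in the hypothalamus of vehicle mice at both harvests, while Vip (2.97 at 3 h and 2.26 at 4 weeks on the log2 scale) was higher at both and Grp (1.01) at 3 h. Vip, which cortical interneurons also make, brought the summed level of the list to medians of 69.2 to 107 CPM in PFC and 31.6 to 36.4 CPM in hypothalamus groups.

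Each member had at least 106 counts in every library used. The positions below are those of the deposited table (GRCm38), and every gene is given with its annotated span. Of the activators, Arntl (ENSMUSG00000055116.8) lies at chr7:113207465-113314126 on the plus strand, Clock (ENSMUSG00000029238.11) at chr5:76209868-76304792 on the minus strand and Npas2 (ENSMUSG00000026077.15) at chr1:39193731-39363236 on the plus strand. Of the period genes, Per1 (ENSMUSG00000020893.17) lies at chr11:69095217-69109960 on the plus strand, Per2 (ENSMUSG00000055866.9) at chr1:91415982-91459324 and Per3 (ENSMUSG00000028957.12) at chr4:151003652-151044665, both on the minus strand. Of the cryptochromes, Cry1 (ENSMUSG00000020038.10) lies at chr10:85131700-85185064 and Cry2 (ENSMUSG00000068742.11) at chr2:92403646-92434043, both on the minus strand. Nr1d1 (ENSMUSG00000020889.11) lies at chr11:98767932-98775333 and Nr1d2 (ENSMUSG00000021775.11) at chr14:18204054-18239127, both on the minus strand. The whole of Per3 (41014 bp) lies within the span of Camta1 on the same strand. Nr1d1 shares 472 bp with Thra on the opposite strand, and Thra had a median of 11106 counts against 1672 for Nr1d1. How the counting treated strand could not be settled, so reads of Nr1d1 and Thra in that stretch, and of Per3 and Camta1, may not be fully separated. The other overlapping genes (D930015M05Rik over Cry2, Gm45355 over Arntl, Gm43658 and Ube2n-ps1 over Clock, Gm20428 and Gm3617 over Npas2) had medians of at most 47.5 counts.

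The sequences before the start sites are shown for Per1, Per3, Cry1 and Cry2, the members with a searched motif before a start site. The E-box CACGTG is bound by Arntl and its partner, TGACG is one side of the cAMP response element TGACGTCA, and TTATGTAA is the D-box bound by Dbp, Tef and Hlf. Promoters of 300 bases (250 before and 50 after the start site) from RefSeq on GRCm38.p6 were searched on both strands, and 9 of the 10 members had an entry. The stretches shown are read 5′ to 3′ on the strand of the gene, with the motifs in capitals (CGTCA in Cry2 is TGACG on the other strand).
Per1, chr11:69098699-69098808, plus strand: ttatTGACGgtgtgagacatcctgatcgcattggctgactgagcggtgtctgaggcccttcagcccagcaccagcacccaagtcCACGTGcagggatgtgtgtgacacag
Per1, second start, chr11:69100000-69100044, plus strand: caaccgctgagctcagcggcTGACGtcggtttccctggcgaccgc
Per3, chr4:151044796-151044890, minus strand: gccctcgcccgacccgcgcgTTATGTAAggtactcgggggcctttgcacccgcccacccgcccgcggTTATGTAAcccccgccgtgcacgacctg
Cry1, chr10:85185055-85185134, minus strand: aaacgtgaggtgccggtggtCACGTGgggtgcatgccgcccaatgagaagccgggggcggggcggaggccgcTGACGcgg
Cry2, chr2:92434254-92434298, minus strand: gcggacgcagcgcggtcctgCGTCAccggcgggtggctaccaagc
CACGTG was present in Per1 and Cry1 and in 7.15% of all 32851 promoters of this length. TTATGTAA was present in Per3 alone of the members, at 2 places, and in 0.938% of all promoters. TGACG was present in Per1, Cry1 and Cry2 and in 20.8% of all promoters, and it lies within TGACGTCA, which no member's window held and 1.79% of all promoters did. The core TAGGTCA, which REV-ERB proteins and their activating competitors bind, was found at 1 start of Arntl and in 2.61% of all promoters, and the glucocorticoid response element, searched as GNACA and TGTNC with 3 free bases between them, in none of the members and in 0.475% of all promoters. The windows of Clock, Npas2, Nr1d1 and Nr1d2 held none of the searched motifs, and Per2 has no entry.

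Expressed per length of the gene (FPKM), Nr1d1 was the highest member in both regions of vehicle mice at 4 weeks. In the PFC its level was 30.4 FPKM ± 3.39 (SD, n = 8), followed by Cry2 at 25.2 ± 1.78 and Nr1d2 at 19.7 ± 2.57. Npas2 (11.2 ± 1.11), Per1 (9.98 ± 3.04) and Clock (8.01 ± 1.16) formed the middle of the order, and neighbours there differed by less than their spread. Arntl stood at 6.71 ± 0.969 FPKM, Per3 at 4.98 ± 0.699, Cry1 at 4.27 ± 0.78 and Per2 was last at 3.22 ± 0.71, and Per3 and Cry1 again differed by no more than the larger of their SDs. In the hypothalamus the order was Nr1d1 (26.4 FPKM), Nr1d2 (23.0), Cry2 (18.4), Per1 (8.78), Clock (7.43), Cry1 (5.79), Per3 (4.19), Per2 (3.67), Arntl (3.61) and Npas2 (3.17). Of the partners of Arntl, Npas2 was thus above Clock in FPKM in the PFC and below it in the hypothalamus. The order in the PFC rests on the annotated exonic length, 4791 bases for Npas2 and 13727 for Clock. In CPM Clock was above Npas2 there, with medians of 116 and 53.0 CPM in vehicle mice at 4 weeks. At 3 h Per1 (17.0 FPKM) stood above Npas2 (11.6 FPKM) in the PFC of vehicle mice, and Per2 (6.97 FPKM) above Arntl, Cry1 and Per3 (6.58, 4.84 and 4.76 FPKM).

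The first question was whether psilocybin moved the clock genes. It did not do so detectably in either region at either harvest. At 3 h in the PFC, 0 of 10 members passed the threshold, an adjusted p under 0.05 by the quasi-likelihood method of edgeR (0.0105% of all genes did), and none had an unadjusted p under that value. Without both libraries that stood apart 0 of 10 passed, and Clock (0.18, unadjusted p = 0.0319, edgeR) and Nr1d2 (0.25, unadjusted p = 0.00913) then had one under 0.05. Per1 lay between 62.0 and 121 CPM (median 99.2, n = 8) in vehicle and between 63.7 and 110 CPM (median 85.4, n = 8) in psilocybin libraries, and Per2 between 34.0 and 48.3 CPM (median 40.8) and between 33.3 and 51.4 CPM (median 39.0). The groups overlapped over nearly their whole range for both genes. The log2 fold change was -0.17 (95% interval -0.40 to 0.07) for Per1 and -0.03 (-0.24 to 0.19) for Per2. The largest positive value was that of Nr1d2, at 83.1 to 154 CPM (median 103) in vehicle and 78.1 to 156 CPM (median 128) in psilocybin libraries, with a log2 fold change of 0.17 (-0.06 to 0.40, adjusted p = 0.796). Replicate 7 of the psilocybin group, which stood apart, was its lowest library. In edgeR its value was 0.25 (adjusted p = 0.284) without that library. In a limma fit with quality weights, modelled on the study's methods but with 1 library kept that the study left out, Nr1d2 passed with a log2 fold change of 0.33 ± 0.0885 (SE, adjusted p = 0.0166), and it was then 1 of 10 members among 6.49% of all genes. Nr1d2 was higher after psilocybin in 5 of 8 cages.

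**Figure D1:**
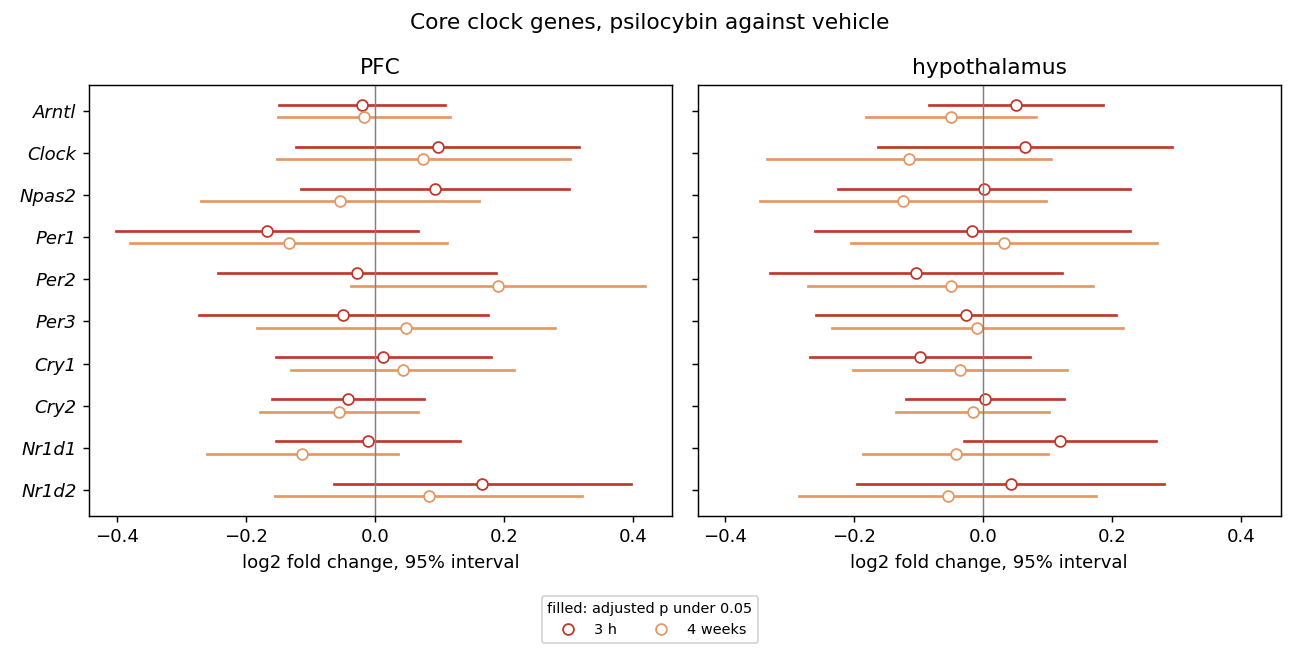
Log2 fold change of each core clock gene, psilocybin against vehicle, in the PFC (left) and the hypothalamus (right) at 3 h (red) and 4 weeks (orange). Points are edgeR estimates and lines their 95% intervals; a filled point would mark an adjusted p under 0.05, and none of the 40 points is filled.

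The intervals were narrowest for Cry2 and Arntl. In the PFC at 3 h, Cry2, which with Cry1 encodes the proteins that most strongly hold back the Arntl and Clock pair, had a log2 fold change of -0.04 (-0.16 to 0.08) and Arntl one of -0.02 (-0.15 to 0.11). The other members had values from -0.05 (Per3) to 0.10 (Clock). The median over the 10 members was -0.015, beside -0.0074 over all genes tested.

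At 4 weeks in the PFC, 0 of 10 members passed in edgeR (0% of all genes did), with a median of 0.013. Per2 had the largest value, at 13.8 to 27.3 CPM (median 18.1, n = 8) in vehicle and 16.02 to 30.8 CPM (median 22.1, n = 7) in psilocybin libraries. These ranges overlapped, the log2 fold change was 0.19 (-0.04 to 0.42, unadjusted p = 0.0998 and adjusted p = 1 in edgeR), and Per2 was higher after psilocybin in 7 of 7 cages. No other member, in either region or at either harvest, had all cages on the same side between treatments. The share of all genes that did was not taken. Without replicate 2 of the psilocybin group the log2 fold change of Per2 was 0.11. With the cage as a block the value was 0.22 (unadjusted p = 0.0436 and adjusted p = 1, edgeR).

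In the hypothalamus 0 of 10 members passed in edgeR at 3 h (0% of all genes did) and 0 of 10 at 4 weeks (0% of all genes did), and none had an unadjusted p under 0.05. At 3 h the values ran from -0.10 (Per2, -0.33 to 0.12) to 0.12 (Nr1d1, -0.03 to 0.27). At 4 weeks they ran from -0.12 (Npas2, -0.35 to 0.10) to 0.03 (Per1, -0.21 to 0.27). Without replicate 5 of the psilocybin group Npas2 had -0.040 and Clock went from -0.12 to -0.011. That library, which stood apart, held the lowest value of its group for Per2 (10.3 CPM), Per3 (17.3 CPM), Clock (44.1 CPM) and Nr1d2 (65.3 CPM), and for Arntl and Npas2 too. The median of the 10 log2 fold changes was 0.0018 at 3 h and -0.047 at 4 weeks (all genes -0.00081 and 0.0097), and -0.0058 at 4 weeks without both libraries that stood apart. DESeq2 called 0 members in each of the 4 comparisons, and limma with quality weights 0 in the 3 others.

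The response to psilocybin did not differ detectably between harvests or regions. The difference of the response between 3 h and 4 weeks passed in edgeR for 0 of 10 members in the PFC (0% of all genes did) and 0 of 10 in the hypothalamus (0% of all genes did), and the difference at 3 h between regions for 0 of 10 members (0% of all genes did), with 0 members at an unadjusted p under 0.05 in each (585, 999 and 528 of all genes in turn). The intervals were wide: for Per2 the difference between harvests in the PFC was -0.22 (-0.53 to 0.10), and for Per1 the difference between regions was -0.15 (-0.49 to 0.19).

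The second comparison set mice killed 3 h after injection against mice killed 4 weeks after it, within each treatment. Here Per1 and Per2 were higher at 3 h in the PFC of both vehicle and psilocybin mice. Time since injection, harvest day and age change together in this comparison and cannot be told apart. In bulk tissue, more cells of a type and more RNA per cell cannot be told apart either.

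Per2 had the largest change. In the PFC of vehicle mice it lay between 34.0 and 48.3 CPM (median 40.8, n = 8) at 3 h and between 13.8 and 27.3 CPM (median 18.1, n = 8) at 4 weeks. Every library at 3 h was above every library at 4 weeks, which held for 0.432% of all genes. The log2 fold change was 1.12 ± 0.110 (SE), a 2.18-fold higher level, with an adjusted p of 2.91e-10 in edgeR. In the PFC of psilocybin mice Per2 lay between 33.3 and 51.4 CPM (median 39.0, n = 8) and between 16.02 and 30.8 CPM (median 22.1, n = 7). The groups again did not overlap, which held for 0.965% of all genes, and the log2 fold change was 0.90 ± 0.114 (adjusted p = 2.56e-07, edgeR). Within cages Per2 was higher at 3 h in 8 of 8 pairs of vehicle mice, by 0.55 to 1.49 on the log2 scale, and in 7 of 7 pairs of psilocybin mice.

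Per1 followed. In vehicle mice it lay between 62.0 and 121 CPM (median 99.2) at 3 h and between 41.8 and 94.3 CPM (median 51.5) at 4 weeks. The groups overlapped through 1 library, replicate 3 at 4 weeks, at 94.3 CPM; the other 7 lay at 61.4 CPM or lower. That library also had the highest summed level of 8 immediate early genes of its group (662 CPM, where the group median was 224), and the part of this in its Per1 level was not tested. The log2 fold change was 0.76 ± 0.118 (adjusted p = 1.59e-05, edgeR) and 0.91 (adjusted p = 7.45e-08) without that library. In psilocybin mice Per1 lay between 63.7 and 110 CPM (median 85.4) and between 41.2 and 63.7 CPM (median 49.8), so the ranges met without crossing, and the log2 fold change was 0.73 ± 0.123 (adjusted p = 6.37e-05, edgeR). Per1 was higher at 3 h in 7 of 8 cages of vehicle mice and in 7 of 7 of psilocybin mice.

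**Figure D2:**
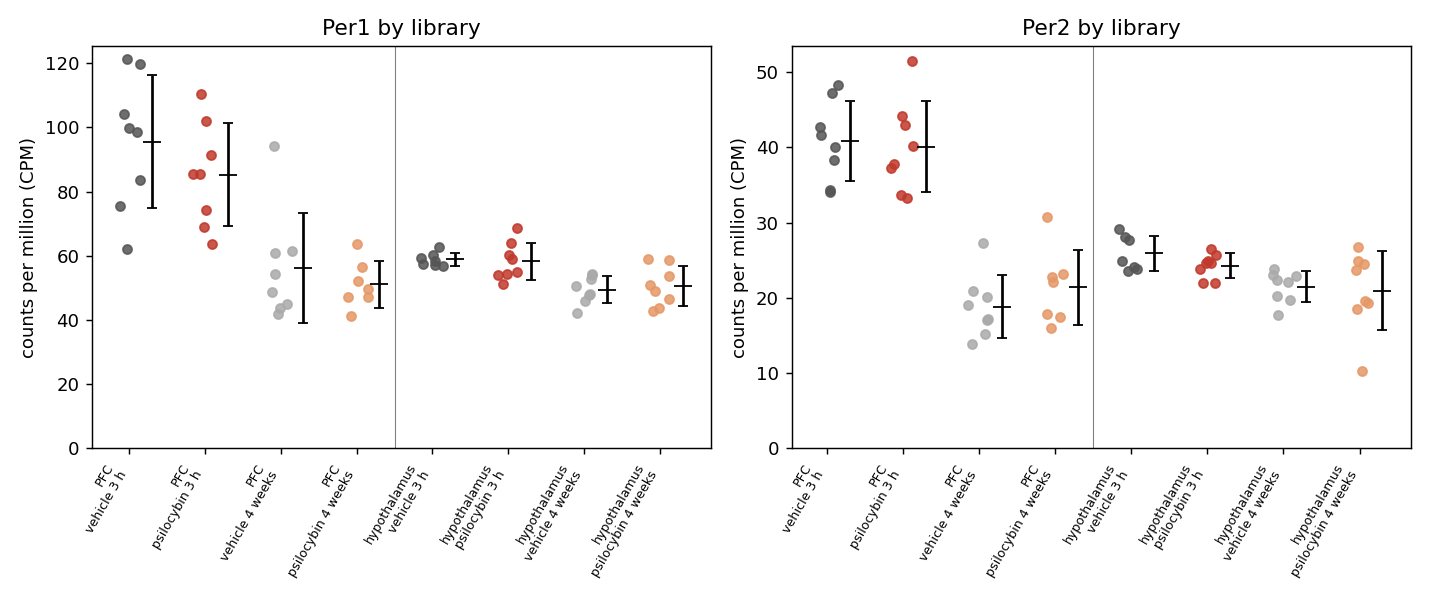
Level of Per1 (left) and Per2 (right) in each library, in counts per 1000000 (CPM), by region, treatment and harvest. Points are libraries, and the tick and bar beside them the mean and SD (n = 7 or 8). In the PFC the 3 h libraries of Per2 lie at 33.3 to 51.4 CPM and the 4 weeks libraries at 13.8 to 30.8 CPM, while hypothalamus libraries of both harvests lie between 10.3 and 29.2 CPM.

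In all, 2 of 10 members passed in the PFC of vehicle mice (4.72% of all genes did) and 3 of 10 in that of psilocybin mice (5.96% of all genes did). The third was Nr1d1, at 81.0 to 123 CPM (median 101) at 3 h and 69.0 to 95.3 CPM (median 89.9) at 4 weeks, with overlapping groups and a log2 fold change of 0.24 ± 0.074 (adjusted p = 0.0432, edgeR). This call was at the edge. With the cage as a block the adjusted p was 0.0542, with the libraries of the PFC alone 0.0709, without the extraction pool 0.113, with all 64 libraries 0.115 and without a filter 0.161. Without replicate 5 at 4 weeks, the lowest library, it was 0.146, and without any one of 8 others (replicates 3, 4, 5 and 7 at 3 h, replicates 1, 2, 7 and 8 at 4 weeks) it was between 0.0549 and 0.113. In vehicle mice Nr1d1 had a log2 fold change of 0.13 (-0.01 to 0.28, adjusted p = 0.316).

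The activators, the cryptochromes and Per3 did not pass in the PFC of either treatment in edgeR. Arntl had log2 fold changes of -0.02 in both treatments (95% intervals -0.15 to 0.11 and -0.16 to 0.11). Per3, the period gene without an essential part in the rhythm, had -0.06 (-0.28 to 0.16) in vehicle and -0.16 (-0.39 to 0.07) in psilocybin mice. Cry1, at 12.4 to 18.4 CPM and 11.5 to 19.9 CPM in vehicle mice, had 0.18 (0.01 to 0.35, adjusted p = 0.233), and it passed with 0.27 (adjusted p = 0.0359, edgeR) without replicate 6 at 4 weeks, its highest library there. That library also had the highest summed level of striatal genes of its group (966 CPM, where the group median was 115). The part of this in its Cry1 level was not tested. In psilocybin mice Cry1 passed in the limma fit with quality weights, at 0.23 ± 0.0800 (adjusted p = 0.0337), as 1 of 4 members called there among 19.1% of all genes. The median over the 10 members was 0.097 in vehicle and 0.16 in psilocybin mice, beside -0.0040 and 0.0080 over all genes.

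**Figure D3:**
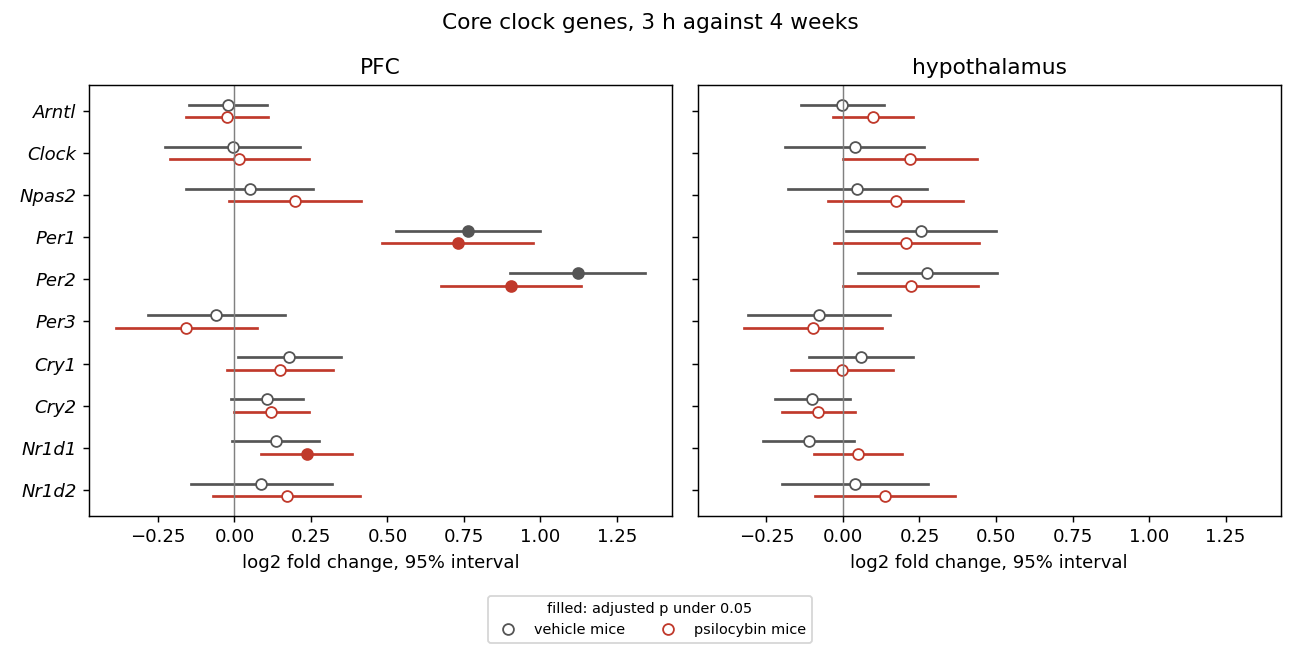
Log2 fold change of each core clock gene, 3 h against 4 weeks after injection, in the PFC (left) and the hypothalamus (right) of vehicle (grey) and psilocybin (red) mice. Points are edgeR estimates, lines 95% intervals, and filled points have an adjusted p under 0.05: Per1 and Per2 in both treatments and Nr1d1 in psilocybin mice, all in the PFC.

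In the hypothalamus the same comparison gave smaller log2 fold changes for Per1 and Per2 in both treatments, though not for every member: in psilocybin mice Clock had 0.22 there and 0.02 in the PFC, and neither passed. Without replicate 5 at 4 weeks, which stood apart, Clock had 0.11 in the hypothalamus (adjusted p = 0.753, edgeR). In vehicle mice 0 of 10 members passed in edgeR (0.685% of all genes did), with Per1 and Per2 at an unadjusted p under 0.05 (1535 of 18971 genes were). In psilocybin mice 0 of 10 passed (1.16% of all genes did), with Per2 alone at an unadjusted p under 0.05, as were 3302 of 18971 genes. Its unadjusted p was 0.0486 (0.227 without replicate 5 at 4 weeks, which stood apart). Per1 lay between 56.9 and 62.8 CPM (median 58.5, n = 7) at 3 h and between 42.1 and 54.4 CPM (median 49.3, n = 8) at 4 weeks in vehicle mice. The groups did not overlap, as for 0.859% of all genes, and the log2 fold change was 0.26 (0.01 to 0.50, adjusted p = 0.575, edgeR). Per2 lay between 23.6 and 29.2 CPM (median 25.0) and between 17.7 and 23.8 CPM (median 22.2), overlapping slightly, with a log2 fold change of 0.28 (0.05 to 0.50, adjusted p = 0.436). In the limma fit with quality weights Per2 passed at 0.30 ± 0.0757 (adjusted p = 0.00854), 1 of 10 members among 7.25% of all genes. DESeq2 called 0 members in both treatments. In psilocybin mice the values were 0.21 (-0.03 to 0.44) for Per1 and 0.22 (0.00 to 0.44) for Per2, which was 0.12 (adjusted p = 0.757, edgeR) without replicate 5 at 4 weeks. Over the 10 members the median in psilocybin mice was 0.12 (all genes -0.029), and 0.047 (all genes -0.0036) without both libraries that stood apart, where Per3 (-0.21, unadjusted p = 0.0238) was the 1 member at an unadjusted p under 0.05. Within cages Per1 was higher at 3 h in 7 of 7 pairs of vehicle and 8 of 8 of psilocybin mice, and Per2 in 7 of 7 and 6 of 8. Nr1d1, which did not pass, was higher at 3 h in 0 of 7 pairs of vehicle and 5 of 8 of psilocybin mice.

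The difference between regions was itself tested. In vehicle mice the change of Per2 between harvests was larger in the PFC than in the hypothalamus by 0.85 ± 0.158 on the log2 scale (adjusted p = 0.0116, edgeR), and Per2 was the 1 of 10 members that passed (0.0369% of all genes did). It was not called with all 64 libraries (adjusted p = 0.103) or without a filter on low counts (0.0576). For Per1 the difference was 0.51 (0.17 to 0.85, adjusted p = 0.443), and 4 members had an unadjusted p under 0.05, as did 1107 of 18971 genes. In psilocybin mice, a test added after the vehicle result was seen, the difference for Per2 was 0.68 (0.37 to 1.00, adjusted p = 0.0517, edgeR), so 0 of 10 members passed (0.116% of all genes did), with 3 at an unadjusted p under 0.05 (3059 of 18971 genes were) and 1 member called by DESeq2. It was called without the hypothalamus library that stood apart, replicate 5 at 4 weeks (0.79, adjusted p = 0.00214), and also without replicate 1 (adjusted p = 0.0459) or 7 (0.04997) of that group, replicate 4 of PFC psilocybin 3 h (0.0331) or replicate 2 of PFC psilocybin 4 weeks (0.0234).

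Other genes of the clock were read from a list of 22, all of which passed the filter on low counts. In the PFC of vehicle mice 2 were higher and 1 was lower at 3 h, so 3 of 22 passed where 4.72% of all genes did. Bhlhe40, a repressor of the Arntl and Clock pair that neuronal activity induces, lay between 140 and 253 CPM at 3 h and between 77.3 and 127 CPM at 4 weeks, without overlap (as for 0.432% of all genes), with a log2 fold change of 0.96 (adjusted p = 2.84e-09, edgeR). Noct, a rhythmic phosphatase, had 0.22 (adjusted p = 0.0357), and Arntl2, a relative of Arntl, -0.52 (adjusted p = 0.0379). In psilocybin mice Bhlhe40 (0.82, adjusted p = 5.05e-07) and Arntl2 (-0.54, adjusted p = 0.0298) passed, 2 of 22 beside 5.96% of all genes. Bhlhe40 also differed between regions in its change, by 1.12 in vehicle (adjusted p = 5.33e-06) and 0.88 in psilocybin mice (adjusted p = 0.0017). In the hypothalamus 0 of 22 passed in vehicle mice (0.685% of all genes did), and 1 in psilocybin mice (1.16% of all genes did), Tipin (-0.47, adjusted p = 0.0089), whose product works at replication forks. Dbp, a direct target of the Arntl and Clock pair that drives rhythmic output, did not pass and lay at 21.8 to 40.2 CPM at 3 h and 21.0 to 47.4 CPM at 4 weeks in the PFC of vehicle mice. None of the 22 passed for psilocybin against vehicle in edgeR in any region or harvest.

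The genes of the signals that reach Per1 and Per2 from outside were counted in the same comparisons, in which 4.72% of all genes passed in the PFC of vehicle mice, 5.96% in that of psilocybin mice, 0.685% in the hypothalamus of vehicle mice and 1.16% in that of psilocybin mice. Of 8 immediate early genes, which mark recent neuronal activity, 7 were higher at 3 h in the PFC of vehicle mice and 7 in that of psilocybin mice, with medians of 1.08 and 1.22 on the log2 scale. In the hypothalamus 1 of 8, Fosb, was higher in each treatment, with medians of 0.58 and 0.10. Of 10 glucocorticoid targets, 6 were higher at 3 h in each of the 4 comparisons, with medians of 0.72 and 0.74 in the PFC and 0.76 and 0.85 in the hypothalamus. In the hypothalamus of vehicle mice Fkbp5, a chaperone that glucocorticoids induce, had a log2 fold change of 0.60 (adjusted p = 0.00153) and Tsc22d3, another such target, 0.90 (adjusted p = 1.02e-07). The part of either input in the values of Per1 and Per2 was not tested. Among the markers of other tissue, 3 of 10 hypothalamic genes (Nkx2-1, Trh and Gal) were lower at 3 h in the PFC of vehicle mice, where the summed level of the 10 was 2.18 to 6.94 CPM at 3 h and 3.20 to 27.5 CPM at 4 weeks. In psilocybin mice 0 of these 10 passed in edgeR and Lhx1, at most 0.323 CPM in any of those libraries, was lower at 3 h. For the striatum, thalamus, endothelium, choroid plexus, cortical neuron and immune lists 0 markers passed in the 4 comparisons, and these levels were not used to adjust the clock genes. The striatal level still varied in the PFC: its 6 genes summed to 100.2 to 323 CPM at 3 h and 81.5 to 966 CPM at 4 weeks in vehicle mice (medians 121 and 115), with a median log2 fold change of -0.94, and of 0.38 in psilocybin mice. Without replicate 6 at 4 weeks, the library at 966 CPM, Per2 had a log2 fold change of 1.08 in vehicle mice (adjusted p = 4.54e-09, edgeR). That fit left out 1 library and did not adjust for the striatal level of the others. The part of striatal tissue in this and the other values was not tested.

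The regions themselves were compared in vehicle mice. The extraction pools were separate for each region, so region and extraction cannot be told apart here. In all, 7 of 10 members differed at 3 h (54.9% of all genes did) and 5 of 10 at 4 weeks (55.2% of all genes did), so these counts were near those of genes in general. In the limma fit with quality weights the counts were 9 of 10 (62% of all genes) and 8 of 10 (67.1% of all genes). Npas2, the forebrain partner of Arntl, differed most. It lay between 46.9 and 61.7 CPM (median 53.0) in the PFC and between 12.6 and 18.1 CPM (median 14.8) in the hypothalamus at 4 weeks, without overlap (29.1% of all genes did not overlap between regions at 4 weeks), with a log2 fold change of 1.82 ± 0.109, or 3.54-fold (adjusted p = 3.71e-22, edgeR). At 3 h the value was 1.83 ± 0.115 (adjusted p = 2.58e-21), and Npas2 was higher in the PFC of every mouse with both libraries (30 of 30). Arntl lay between 41.2 and 63.6 CPM in the PFC and between 24.3 and 29.2 CPM in the hypothalamus at 4 weeks, with log2 fold changes of 0.89 ± 0.0651 there and 0.87 ± 0.0679 at 3 h (adjusted p = 2.25e-18 and 3.16e-17). Clock, the other partner, had 0.10 (-0.12 to 0.32) and 0.06 (-0.17 to 0.29) and did not pass in edgeR, while in the limma fit with quality weights it passed at 4 weeks (0.15 ± 0.0592, adjusted p = 0.0267).

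The cryptochromes went opposite ways. Cry2 was higher in the PFC, by 0.45 ± 0.0592 at 4 weeks and 0.66 ± 0.0618 at 3 h (adjusted p = 1.89e-09 and 3.93e-14), and its groups did not overlap at either harvest, as for 27.8% of all genes at 3 h and 29.1% at 4 weeks. Cry1 was lower in the PFC, at 11.5 to 19.9 CPM against 15.2 to 21.4 CPM at 4 weeks, by -0.44 ± 0.0831 and at 3 h by -0.32 ± 0.0856 (adjusted p = 7.68e-06 and 0.00119). Cry1 was lower in the PFC of all 15 vehicle mice and in 14 of 15 psilocybin mice. Nr1d1 was higher in the PFC at 3 h (0.45, adjusted p = 5.11e-07) and at 4 weeks (0.21, adjusted p = 0.0117). The latter was not called without replicate 3 of the PFC group (0.13, adjusted p = 0.118), with DESeq2 (0.0553), with all 64 libraries (0.0756) or without a filter (0.136). Per3 did not pass at 3 h (0.26, adjusted p = 0.0556) or at 4 weeks (0.24, adjusted p = 0.0665), nor did Nr1d2 at 4 weeks (-0.23, adjusted p = 0.0908). Both passed at 4 weeks with the mouse as a block (Per3 0.24, adjusted p = 0.00966, and Nr1d2 -0.23, adjusted p = 0.006), in the limma fit with quality weights (adjusted p = 0.00588 and 0.0152) and without both libraries that stood apart (0.0144 and 0.0241, edgeR). Nr1d2 also passed at 4 weeks with DESeq2 (adjusted p = 0.0441) and median-ratio scaling (0.0359), and at 3 h in the limma fit (-0.25, adjusted p = 0.0078). At 3 h Per3 passed in the limma fit (0.31, adjusted p = 0.00322) and without both libraries that stood apart (0.0106, edgeR). Per3 also passed at 3 h without replicate 6 of the hypothalamus (adjusted p = 0.049) or replicate 3 (0.0399) or 4 (0.0212) of the PFC, and at 4 weeks without replicate 7 (0.0487) or 8 (0.0231) of the hypothalamus.

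Per1 and Per2 passed at 3 h and not at 4 weeks, and the test of the difference between harvests passed for Per2 (adjusted p = 0.0116, edgeR, but 0.103 with all 64 libraries and 0.0576 without a filter) and not for Per1 (0.443). At 3 h both were higher in the PFC, Per1 by 0.70 ± 0.123 (adjusted p = 2.13e-06) and Per2 by 0.65 ± 0.113 (adjusted p = 1.8e-06), and each was higher there in 7 of 7 mice. At 4 weeks Per1 had 0.19 (-0.05 to 0.43, adjusted p = 0.172) and Per2 -0.20 (-0.42 to 0.02, adjusted p = 0.123), and Per2 was higher in the PFC of 1 of 8 mice. Without replicate 3 of the PFC at 4 weeks Per1 had 0.00099 (adjusted p = 0.995, edgeR), and Per2 passed as lower in the PFC (-0.32, adjusted p = 0.0107).

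**Figure D4:**
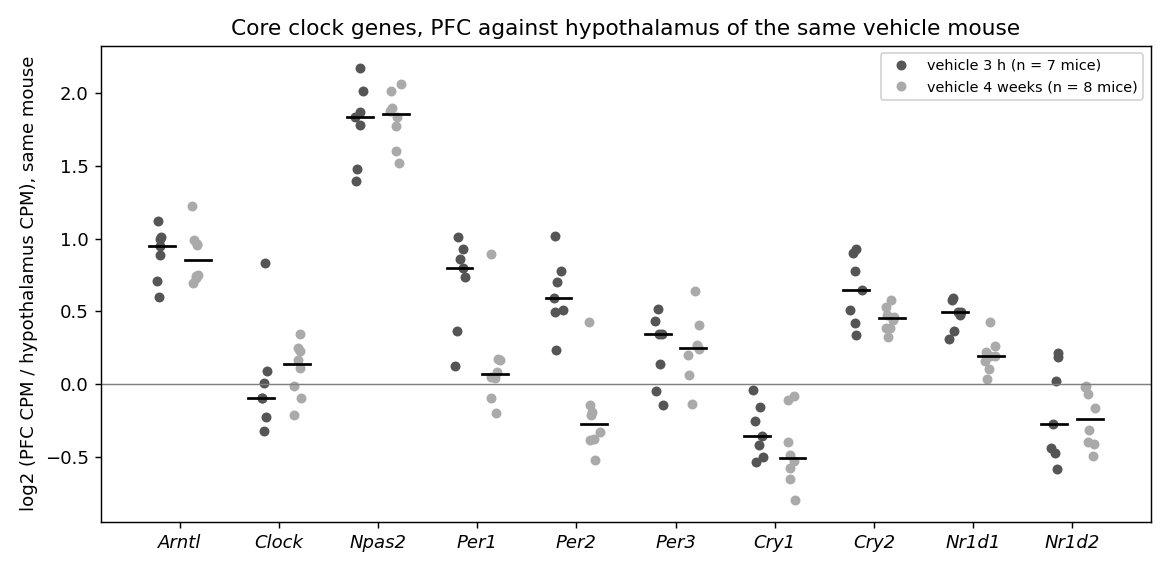
Log2 ratio of the PFC level to the hypothalamus level of each core clock gene in the same vehicle mouse, at 3 h (dark, n = 7) and 4 weeks (light, n = 8), with medians as bars. Npas2 lies between 1.39 and 2.17 in every mouse and Cry1 below 0, while the medians of Per2 are 0.59 at 3 h and -0.27 at 4 weeks.

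How the members varied among mice of the same group was read from residuals of log2 CPM after group and extraction pool were removed. In the 30 mice with both libraries, 2 of 10 members varied together in the PFC and the hypothalamus. Of all 18971 genes, 0.221% had both coefficients at least as far from 0 as the weakest of these (r of 0.59 and rho of 0.54), and the median r was 0.021. Per1 had a Pearson r of 0.59 and a Spearman rho of 0.68 (permutation p = 0.00063 and 7e-05, adjusted over 10 members 0.00315 and 0.0007), and r was 0.68 without the 2 mice farthest from the median PFC residual. Nr1d1 had an r of 0.62 and a rho of 0.54 (permutation p = 0.00026 and 0.00284, adjusted 0.0026 and 0.0142), and r was 0.58 without the 2 farthest. Without both libraries that stood apart (28 mice) Per1 kept an r of 0.58 (adjusted 0.0061) and a rho of 0.69 (adjusted 0.0008), and Nr1d1 an r of 0.58 (adjusted 0.0061) and a rho of 0.46, whose adjusted permutation p of 0.0694 no longer passed. Per2 had an r of 0.25 and a rho of 0.09 (permutation p = 0.19 and 0.633).

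**Figure D5:**
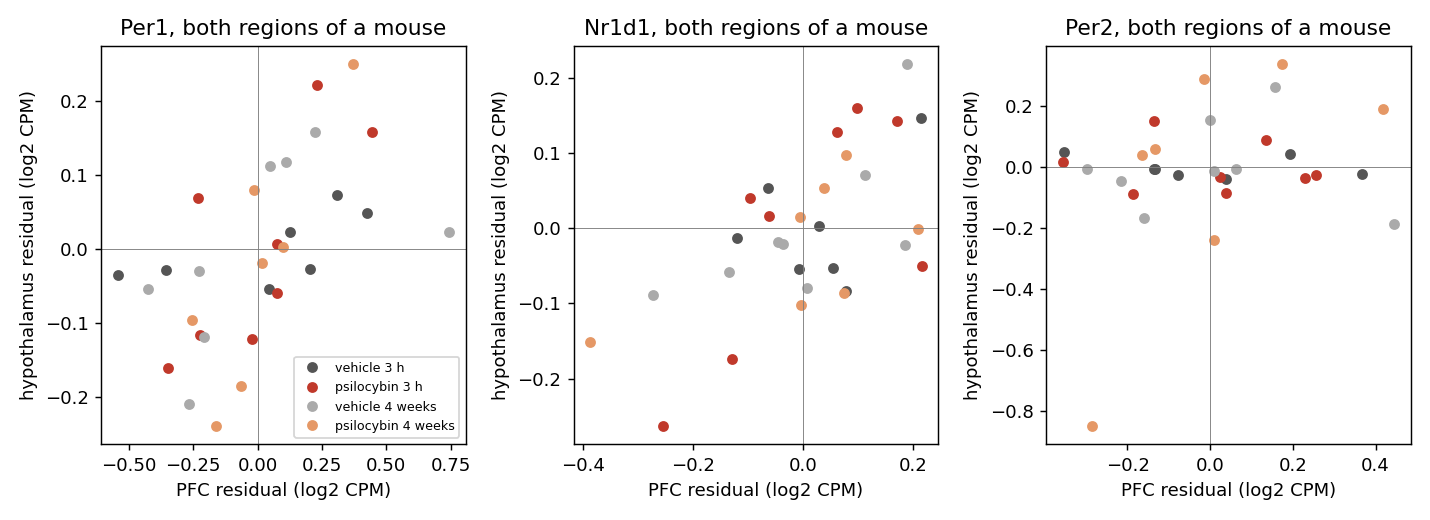
Residual log2 CPM in the PFC (horizontal) and the hypothalamus (vertical) of the same mouse for Per1, Nr1d1 and Per2, after group and extraction pool were removed. Each point is 1 of 30 mice, coloured by treatment and harvest; Per1 and Nr1d1 rise together in both regions (r = 0.59 and 0.62), and Per2 has an r of 0.25.

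Within a region, the 45 pairs of members were compared over 31 libraries, and a pair was counted when both coefficients passed after adjustment over the 90 tests. In the PFC 8 of 45 pairs passed, 5 of them positive. Of all pairs of tested genes, 8.1% had both coefficients in the PFC at least as far from 0 as the weakest of these 8. Nr1d1, Cry2 and Per1 varied together, with r = 0.65 and rho = 0.64 for Cry2 and Nr1d1 (adjusted permutation p = 0.0012 and 0.00296), r = 0.63 and rho = 0.70 for Per1 and Nr1d1 (0.00167 and 0.000225) and r = 0.57 and rho = 0.56 for Per1 and Cry2 (0.00519 and 0.0147). Per1 also varied with Per2 (r = 0.52, rho = 0.49, adjusted permutation p = 0.0143 and 0.0432) and opposite to Nr1d2 (r = -0.50, rho = -0.49, adjusted permutation p = 0.0195 and 0.0430). Clock and Nr1d2 varied together (r = 0.78, rho = 0.77, both with an adjusted permutation p of 0.000225) and opposite to Cry2, with r = -0.59 and rho = -0.63 for Cry2 and Clock (adjusted permutation p = 0.00324 and 0.00296) and r = -0.81 and rho = -0.79 for Cry2 and Nr1d2 (both 0.000225). In the hypothalamus 3 of 45 pairs passed, all positive. Of all pairs of genes there, 4.9% lay at least as far from 0 as the weakest of the 3, so this count was near that of genes in general. The 3 were Per2 and Per3 (r = 0.88, rho = 0.80), Clock and Nr1d2 (r = 0.90, rho = 0.72), both with an adjusted permutation p of 0.000225 for r, and Cry2 and Npas2 (r = 0.48, rho = 0.55, adjusted permutation p = 0.0292 and 0.018). Without both libraries that stood apart Cry2 and Npas2 no longer passed (r = 0.46, adjusted permutation p = 0.0800), and 10 of the 90 pairs passed over both regions in place of 11. When the group alone was removed and not the extraction pool, 7 pairs passed in the PFC and 8 in the hypothalamus, a setting chosen after seeing the data. The share of all gene pairs past the limits of the first setting was then 11.9% in the PFC and 7.17% in the hypothalamus. The 7 and 8 pairs were counted by adjusted permutation p instead, so these counts and shares are not alike. Short of those limits were Per1 with Nr1d1 (r = 0.49) and with Nr1d2 (rho = -0.48) in the PFC. So were Per3 with Arntl (rho = 0.51) and Cry2 with Npas2 (r = 0.47) in the hypothalamus. Cry2 with Nr1d1 (rho = 0.42, adjusted permutation p = 0.0778) and Cry2 with Clock (rho = -0.42, adjusted permutation p = 0.0778) were then lost in the PFC and Per2 with Per3 was gained. In the hypothalamus Per2 with Clock, Per3 with Arntl, Per3 with Clock, Cry2 with Nr1d1 and Arntl with Clock were gained. The smallest p the shuffles can give is 1e-05, which is 0.000225 after adjustment. In the 2 libraries that stood apart Clock and Nr1d2 were the lowest of their groups, and without the 2 libraries farthest on Clock or Per2 the r of these pairs were 0.71 in the PFC for Clock and Nr1d2, 0.68 in the hypothalamus for the same pair and 0.72 for Per2 and Per3. For the other 8 pairs r without the 2 farthest libraries lay between 0.40 and 0.63 or between -0.75 and -0.44.

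The genes whose residuals were most like those of 3 members over the 62 libraries are given as a description. For Per2 they were Rnf24 (Spearman rho 0.76, and 0.74 within each region), Nuak1 (0.68), Bcl9 (0.67), Snx30 (0.66) and Ywhag (0.66). For Arntl the closest gene, Mtrex, reached 0.58, followed by 9330159F19Rik (0.54), Parg (0.54), Mtmr12 (0.54) and Rbm28 (0.52). For Nr1d1 they were Ece1 (0.65), 1700017B05Rik (0.61), Gpr153 (0.61), Bhlhe40 (0.60) and Notch3 (0.60), so a clock repressor from the list of 22 was among them. These points share libraries, depth and RNA quality.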

How the data were processed

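The authors aligned paired reads of TruSeq stranded mRNA libraries to GRCm38 with STAR and counted them per GENCODE gene with featureCounts (bcl2fastq 2.20.0, STAR 2.7.2b and featureCounts 1.6.2 per the submitters' processing notes). The deposited table holds raw counts per gene, with no normalization. The members and gene lists were chosen with earlier results of these data known. Gene IDs were paired with symbols for 55141 of 55401 rows. Libraries under 1000000 counts were left out. The counts were filtered with filterByExpr (minimum count 10), scaled by TMM and tested with edgeR 4.0.16 (robust quasi-likelihood), with group and extraction pool within region in 1 fit, and Benjamini-Hochberg adjustment over 18971 genes at 0.05, in R 4.3.3. Mice are the replicates; intervals of a fold change are at 95%. Alternatives were DESeq2 1.42.0, a fit modelled on the study's procedure (voomWithQualityWeights, limma 3.58.1, duplicateCorrelation by mouse; the study also left out 1 library rich in wound healing and immune transcripts, which the labels do not mark and which was kept here, so the inputs differ), median-ratio scaling, no filter, no pool, a cage block, all 64 libraries, fits by region, a mouse block and each library left out. The fits and the correlation test were checked on simulated data. No 2 replicates agreed within sampling noise (210 pairs, lowest chi-square per degree of freedom 3.85).

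The replicate number is the cage in the labels, which pairs mice of different groups. Deviations of same-cage libraries correlated with a mean r of 0.0806 (-0.31 to 0.44) in the PFC and 0.0723 (-0.21 to 0.40) in the hypothalamus across genes, and both regions of a mouse share treatment, harvest and number. Correlations across mice or libraries used 100000 shuffles (two-sided; smallest p 1e-05, SciPy). Genes named are all members, the other clock genes that passed, up to 5 genes most like each of Per2, Arntl and Nr1d1, and genes overlapping a member; Dbp, Fkbp5, Tsc22d3, Fosb and the markers were named after their values were seen.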

Additional observations from a re-analysis of the deposited data

Results flagged for a closer look

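Among the 80 sets of values of 1 member in 1 group, 8 held a library far from the others, where chance gives about 1 in 20 sets. Per1 in PFC vehicle 4 weeks replicate 3 was at 94.3 CPM, with the nearest other library at 61.4 CPM. Cry1 in PFC vehicle 4 weeks replicate 6 was at 19.9 CPM. In PFC psilocybin 4 weeks, Per3 in replicate 4 was high at 68.5 CPM and Nr1d1 in replicate 5 low at 69.0 CPM. Clock was high in PFC vehicle 3 h replicate 5, at 155 CPM. The remaining 3 values belong to the 2 libraries that stood apart: Clock at 69.4 CPM in PFC psilocybin 3 h replicate 7, and Clock at 44.1 CPM and Nr1d2 at 65.3 CPM in hypothalamus psilocybin 4 weeks replicate 5.

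Per2 was listed because its change between harvests differed between regions in vehicle mice, by 0.85 on the log2 scale in a test of the difference itself.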

How the results depend on the processing

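Of 18 member values called, 161 recomputed values under other settings (single libraries left out aside) all kept their direction and 151 stayed past the threshold. Of 122 values not called, 15 of 1079 passed. These leave out the region difference in psilocybin mice, which was added later. Counts of members called moved as follows. With limma and quality weights (the study's procedure, with 1 library kept that the study left out), 1 member was called for psilocybin against vehicle in the PFC at 3 h (Nr1d2), 1 for vehicle 3 h against 4 weeks in the hypothalamus (Per2), 4 in place of 3 for psilocybin 3 h against 4 weeks in the PFC (Cry1 added), 9 in place of 7 between regions at 3 h (Per3 and Nr1d2 added), and 8 in place of 5 at 4 weeks (67.1% of all genes in place of 55.2%). The region difference of the change in vehicle mice fell to 0 members with all 64 libraries and without a filter. That in psilocybin mice was 1 (Per2) with DESeq2, median-ratio scaling, the limma fit and both libraries that stood apart left out, a setting chosen after seeing the data, and 0 to 1 with each library left out. Without both libraries that stood apart 1 of 10 members correlated between regions in place of 2. With the group alone removed, also chosen after seeing the data, 15 of 90 pairs of members correlated within a region in place of 11. With the cage as a replicate block, 2 members were called in the PFC of vehicle mice and 2 in that of psilocybin mice (Nr1d1 was lost at an adjusted p of 0.0542), and no other call changed; the mouse as a replicate block added Per3 and Nr1d2 between regions at 4 weeks. Nr1d1 was also lost in the PFC of psilocybin mice with all 64 libraries, without the pool, without a filter and with fits by region. Between regions at 4 weeks it was lost with all 64 libraries, without a filter and with DESeq2. Nr1d2 was gained there with DESeq2 and median-ratio scaling, and Per3 and Nr1d2 without both libraries that stood apart. Without those libraries Per3 was gained at 3 h too. The cause of these changes was not tested.

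Counts over all genes moved by more than 1.5 times: for PFC psilocybin against vehicle at 3 h, 2 genes in edgeR, 12 in DESeq2, 20 without both libraries that stood apart and 1232 (975 higher, 257 lower) with the limma fit; at 4 weeks 0, 27 with DESeq2 and 3 with all 64; in the hypothalamus at 4 weeks 0 and 20 with DESeq2. For vehicle mice, 3 h against 4 weeks, 896 genes in the PFC became 425 without a filter, 521 with all 64 and 1900 without both libraries, and 130 in the hypothalamus became 60, 53 and 270, or 1376 with the limma fit. For psilocybin mice, 1131 in the PFC became 552 without a filter, 666 without the pool, 2319 and 3615, and 220 in the hypothalamus became 96 with all 64, 447 with DESeq2 and 624 with the limma fit. For the difference of that change between regions, 7 genes in vehicle mice became 2 with all 64 or no filter and 21 to 25 with both libraries left out, DESeq2 and the limma fit, and 22 in psilocybin mice became 4 without a filter, 7 with the cage block, 11 without the pool or with all 64, 97 with DESeq2 and 112 with the limma fit. Each member had 106 counts or more in every library; counting error and spread between mice were not separated, and groups held 7 or 8 mice.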
